A study of Mus musculus with 2 samples.

Results

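Histone acetyltransferases are the enzymes that place acetyl groups on histone tails, and 10 of their genes were read on arrays of LSK cells from nondiabetic and diabetic mice: Kat2a, Kat2b, Hat1, Crebbp, Ep300, Kat5, Kat6a, Kat6b, Kat7 and Kat8. Every non-control probe whose transcript identifier belonged to one of these genes was taken, whatever its signal, which gave 13 probes and 22 spots for the 10 genes among the 21360 genes named on the arrays. LSK cells, the Sca-1 and c-kit positive fraction of lineage-negative bone marrow, hold the hematopoietic stem cells. There was 1 single-colour Agilent array for C57BL/6J mice without diabetes and 1 for C57BL/6J mice made diabetic with streptozotocin (STZ), a toxin of the insulin-producing beta cells. The labels give 3 mice and 8.3 ng of amplified total RNA for each array, and female mice for both, where the paper describes male mice; they give neither age nor time after STZ. The study's interest was in histone deacetylases, the enzymes that remove these acetyl groups, and the acetyltransferases are their counterpart.

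Acetylation neutralises the positive charge of lysines in histone tails, loosens chromatin, and forms docking sites for proteins with a bromodomain. The enzymes fall into families: the GNAT enzymes (Kat2a, Kat2b and the more distant Hat1), the related coactivators CBP and p300 (Crebbp and Ep300), and the MYST enzymes (Kat5, Kat6a, Kat6b, Kat7 and Kat8). Most work inside large complexes whose other subunits set where they act, and several, Kat6a and Crebbp among them, are known to be needed for normal hematopoietic stem cells.

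In these arrays no probe of the GNAT genes, Crebbp or Ep300 lay past a 2-fold difference, and 3 of the 5 MYST genes did. Over all named genes with a ratio, 11.0% were at least 2-fold higher and 10.1% lower. The share past 2-fold varied with probe intensity. Among named probes of like intensity (mean log2 intensity within 0.5) it was 0% for Crebbp and 6.00% for the brighter Hat1 probe. It was 17.4% to 30.5% for Ep300 and the other GNAT probes, and 21.0% to 28.9% for Kat6b, Kat7 and Kat8. For the dimmer of the 2 Kat5 probes it was 31.0%. Kat6b was 10.1-fold lower in the diabetic array. Kat8 was 3.01-fold and Kat7 2.01-fold higher there, and 1 of the 2 Kat5 probes was 2.13-fold higher. With 1 array for each condition there is no replicate check and no test, so each difference below compares these arrays and not the conditions at large, and fewer cells of a type in the sort cannot be told apart from less RNA per cell.

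Values are processed intensities, in the scanner's arbitrary units after the software's background correction. The log2 ratios are diabetic over nondiabetic, after each array was divided by its own 75th percentile, 168 in the nondiabetic and 182 in the diabetic array, so a probe with the same raw intensity on both has a ratio slightly below 0. The error given after ± is that of the scanner software's error model carried into the ratio, which covers neither mice nor amplification. A gene with several probes is counted by its brightest probe, and at least 2-fold (a log2 ratio of 1) is the limit used for counts. The software marked 62.7% and 63.9% of spots as well above background, no spot was saturated, and both arrays lay on 1 slide and came from 1 scan. Kit, one of the genes that define LSK cells, was at 4635 and 4735, and Ly6a, which encodes Sca-1, was at 475 and 701, both well above background on both arrays. The probes of different genes bind with different strength, and their levels are therefore not set against each other.

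All 13 acetyltransferase probes were well above background on both arrays, so all 10 genes have a measured ratio. The 15192 named genes with a ratio, in contrast, include 1725 with only a bound, where 1 array was not well above background. By the brightest probe, 2 of the 10 genes were at least 2-fold higher in the diabetic array, where 11.0% of the 15192 named genes with a ratio were, and 1 of the 10 was at least 2-fold lower, where 10.1% were. By probe, 3 of 13 were at least 2-fold higher, against 11.9% of named probes, and 1 of 13 was lower, against 10.9%. The median log2 ratio of the 10 genes was 0.14, with 6 genes above 0 and 4 below, beside a median of 0.02 over all named genes. The split of 2 higher and 1 lower gene became 1 and 1 when the ratios were corrected by loess or read from the authors' table of processed values, since Kat7 lies at the limit, and 0 and 1 with normexp background correction, which put Kat8 at 0.98 and Kat7 at 0.78 and left 0 of the 13 probes higher.

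**Figure D1:**
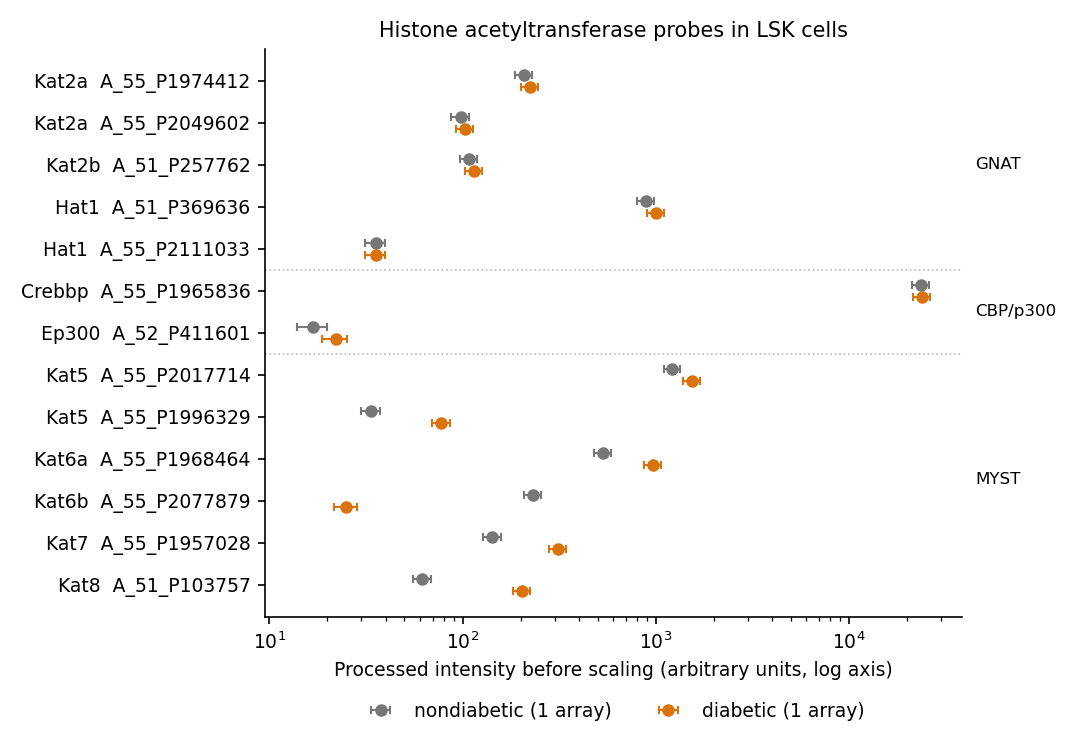
Processed intensity (arbitrary units, log axis) of each of the 13 acetyltransferase probes, with 1 grey point for the nondiabetic and 1 orange point for the diabetic array and bars for the scanner software's error. The points lie close together for the GNAT and CBP/p300 probes and apart for Kat6b, Kat7, Kat8, Kat6a and the dimmer Kat5 probe.

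Markers of other blood and marrow cells also differed between the arrays. Of the erythroid markers, the globin genes Hba-a1 (1984 in the nondiabetic and 4967 in the diabetic array) and Hbb-b1 (102 and 225) were higher in the diabetic array, while the erythroid regulator Klf1 was at 19.1 and 16.9 and the erythropoietin receptor gene Epor at 57.0 and 53.8. Each sum below adds the same probes on both arrays, and it follows the brightest of them. The 5 B cell markers summed to 167 and 239, with Cd79a at a log2 ratio of 1.51 but Cd79b at -0.39, and with Ebf1 and Ms4a1 near background on both arrays. The 5 T and NK cell markers summed to 4536 and 3810, mostly from the brightest Nkg7 probe (3291 and 2582, a log2 ratio of -0.47). The other Nkg7 probe gave 0.87, Cd3e was at -0.38, and Cd4 at -0.05 with a further probe at 0.30. Cd3g was at least 2.74-fold lower in the diabetic array. The granulocyte and monocyte markers summed to 42624 and 41622, mostly from the brightest Itgam probe, at a log2 ratio of -0.10. The further Itgam probes gave -1.30 and -1.12, and Csf1r was at -0.34 with a further probe at -1.17. Mpo was at -0.68 and Elane at 0.50. The 5 markers of stroma and endothelium summed to 193 and 965, mostly from Pecam1 (162 and 936), while Cdh5 and Col1a1 stayed near background on both. Cxcl12 was at 14.1 and 11.3 and Lepr at 12.3 and 13.2, so the higher sum is that of Pecam1 and not of the list. The 10 stem and early progenitor markers summed to 14020 and 17317, with 9 of the 10 well above background in the nondiabetic and all 10 in the diabetic array. Among them Mecom was at -1.20 by its brightest probe and -0.16 by the other, and Slamf1 was at least 2.59-fold higher in the diabetic array. The part of these cells in the acetyltransferase ratios was not tested.

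The GNAT genes lay near 0. Kat2a (GCN5), the acetyltransferase of the SAGA and ATAC coactivator complexes, has 2 probes to the transcript NM_020004. Probe A_55_P1974412 read 207 in the nondiabetic and 223 in the diabetic array, a log2 ratio of -0.01 ± 0.21, and probe A_55_P2049602 read 97.6 and 102.7, a ratio of -0.04 ± 0.21. Both probes of Kat2a thus gave ratios near 0, 0.03 apart on the log2 scale. Kat2b (PCAF), the close relative that takes the place of Kat2a in some of these complexes, was at 107.7 and 115, a log2 ratio of -0.02 ± 0.21 (A_51_P257762, NM_020005). Hat1, which acetylates newly made histone H4 before it is built into chromatin, has a bright and a dim probe to NM_026115. The bright one, A_51_P369636, read 885.5 and 1002, a log2 ratio of 0.06 ± 0.20. The dim one, A_55_P2111033, read 35.5 on both arrays, a ratio of -0.12 ± 0.24 after scaling. All 5 GNAT probes therefore lay between -0.12 and 0.06, each within the software's error of 0.

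CBP and p300 are large, related coactivators that are recruited by many transcription factors and acetylate histones at enhancers and promoters. Crebbp, which encodes CBP, was at 23552 in the nondiabetic and 23870 in the diabetic array, a log2 ratio of -0.10 ± 0.20 (A_55_P1965836, NM_001025432). Ep300, which encodes p300, was dim, at 16.8 and 22.0, where the lowest intensities marked as well above background were 10.2 and 10.1. Its log2 ratio was 0.27 ± 0.33 (A_52_P411601, NM_177821), within the software's error of 0. The 4 members that carry a bromodomain, the module that reads acetylated lysine, are Kat2a, Kat2b, Crebbp and Ep300, and by their brightest probes their ratios ran from -0.10 to 0.27 with none past the 2-fold limit.

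**Figure D2:**
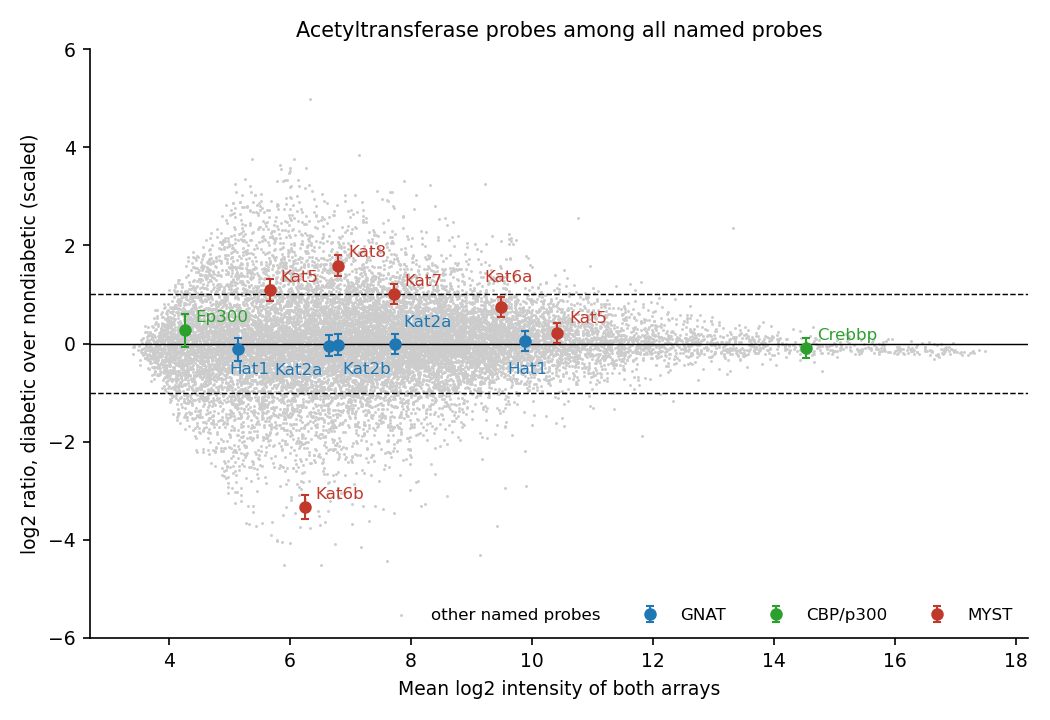
Log2 ratio, diabetic over nondiabetic after scaling, against the mean log2 intensity of both arrays, for the acetyltransferase probes (coloured by family, bars for the scanner software's error) over the 17386 named probes well above background on both arrays (grey). Dashed lines mark 2-fold, and Kat6b lies near the lower edge of the probes of its intensity while Kat7, Kat8 and the dimmer Kat5 probe lie at or above the upper line.

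The 5 MYST genes and their 6 probes ran from -3.33 to 1.59 and held every acetyltransferase past the 2-fold limit. Among all named genes with a ratio, 11.0% were past this limit upward and 10.1% downward. The 300-base windows around the start sites of Kat6b, Kat7 and Kat8, the genes past the limit, are shown so that their start regions can be read side by side. They are RefSeq windows on GRCm38.p6, 5′ to 3′ on the gene's strand, from 250 bases before the start to 50 bases after it, with GC boxes (the letters GGGCGG) and CCAAT boxes of either strand in capitals.
Kat6b, chr14:21499520-21499819, plus strand: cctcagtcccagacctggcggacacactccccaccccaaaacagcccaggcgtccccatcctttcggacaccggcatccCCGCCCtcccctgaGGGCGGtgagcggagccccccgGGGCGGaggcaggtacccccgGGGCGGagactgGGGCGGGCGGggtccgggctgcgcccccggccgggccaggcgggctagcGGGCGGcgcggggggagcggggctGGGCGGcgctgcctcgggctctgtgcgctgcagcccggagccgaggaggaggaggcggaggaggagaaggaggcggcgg
Kat7, chr11:95310197-95310496, minus strand: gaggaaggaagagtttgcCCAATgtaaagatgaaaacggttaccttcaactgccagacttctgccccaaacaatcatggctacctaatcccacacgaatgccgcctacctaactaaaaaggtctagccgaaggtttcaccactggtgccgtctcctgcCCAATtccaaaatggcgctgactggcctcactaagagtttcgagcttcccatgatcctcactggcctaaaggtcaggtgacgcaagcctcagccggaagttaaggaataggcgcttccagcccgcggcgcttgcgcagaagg
Kat8, chr7:127912267-127912566, plus strand: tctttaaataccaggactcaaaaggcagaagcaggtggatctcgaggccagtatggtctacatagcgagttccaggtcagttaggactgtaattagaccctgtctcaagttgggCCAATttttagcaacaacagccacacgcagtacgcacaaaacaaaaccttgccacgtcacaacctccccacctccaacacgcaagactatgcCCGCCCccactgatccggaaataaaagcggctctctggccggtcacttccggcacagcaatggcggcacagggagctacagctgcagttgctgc
The Kat6b window is 78.3% G and C, with 32 CpG and 8 GC boxes, of which a pair overlaps, and no CCAAT box. The Kat7 window is 53.0% G and C, with 14 CpG, 2 CCAAT boxes and no GC box. The Kat8 window has 12 CpG, 1 GC box and 1 CCAAT box. A later Kat8 start, chr7:127912764-127913063, has 5 CpG, 1 GC box and 2 CCAAT boxes, and a Kat6b window that starts 15 bases on at 21499535 has the same 8 GC boxes. The table held 13 windows for 9 of the 10 genes, and Kat6a had no window in it. A GC box was found in 8 of the 13 windows and in 35.7% of all 32851 mouse windows, a CCAAT box in 6 of the 13 and in 37.4% of all. The E-box with the letters CACGTG occurred in 2 of the 13, those of Hat1 and Kat5, and in 7.15% of all, whereas the CRE letters TGACGTCA and the TATA box letters TATAAA, held by 1.79% and 13.6% of all windows, were in none of the 13. The 13 windows had 5 to 49 CpG with a median of 19, where the median of all windows was 7. These are matches of letters, and the arrays did not measure what binds there.

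Kat6b (MORF) acetylates histone H3 in a complex with BRPF scaffold proteins, which it shares with its paralog Kat6a (MOZ). Kat6b was at 231 in the nondiabetic and 24.9 in the diabetic array, a log2 ratio of -3.33 ± 0.24, or 10.1-fold lower (A_55_P2077879, NM_017479). The diabetic spot was still well above background. Its uncorrected median signal was 64 over a local background of 33, whereas the nondiabetic spot had 275 over 34. Of the 17386 named probes well above background in both conditions, 0.184% had a lower ratio than Kat6b. Among the 2983 of these whose mean log2 intensity was within 0.5 of that of Kat6b, 0.939% lay at least as far from 0 in either direction, although 28.9% of them were past 2-fold. Kat6b has 1 probe printed at 1 spot, so neither a second probe nor a second spot bears on this ratio. Kat6a, which is required for the upkeep of hematopoietic stem cells, differed the other way. It was at 533 in the nondiabetic and 968 in the diabetic array, a log2 ratio of 0.74 ± 0.20 or 1.67-fold, short of the 2-fold limit (A_55_P1968464, NM_001081149). The log2 ratios of the paralogs Kat6a and Kat6b were 4.08 apart.

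Kat8 (MOF), which acetylates histone H4 in the MSL complex and also works in the NSL complex, is the member with the most measurements, because its probe A_51_P103757 (NM_026370) was printed at 10 spots. Over the 7 spots without an outlier mark on either array, the lowest, median and highest intensities were 54.0, 58.4 and 70.5 in the nondiabetic array. In the diabetic array the same spots had 190, 199 and 217 as their lowest, median and highest values. No spot of one array reached the range of the other. The mean log2 ratio was 1.59 with an SD of 0.19 over the 7 spots, or 3.01-fold higher, and the single spots gave 1.37 to 1.81. The 3 spots left out carried their marks on the diabetic array and none on the nondiabetic array. With them, the mean over all 10 spots was 1.63 with an SD of 0.21, from 1.37 to 1.90. These spots measure 1 labelled RNA on each array, so their spread is technical and says nothing of the spread between mice.

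**Figure D3:**
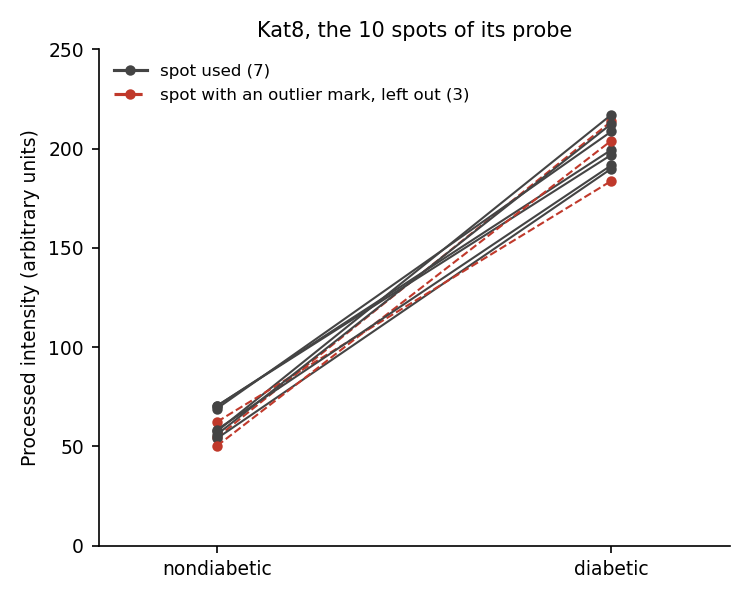
Processed intensity (arbitrary units, linear axis from 0) at the 10 spots of the Kat8 probe, each line joining 1 spot position on the nondiabetic and the diabetic array. Solid lines are the 7 spots used and dashed lines the 3 left out, and every spot is higher in the diabetic array, at 184 to 217 against 50.3 to 70.5.

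Kat7 (HBO1), which acetylates histones H3 and H4 and takes part in the licensing of replication origins, was at 143 in the nondiabetic and 312 in the diabetic array. Its log2 ratio was 1.01 ± 0.21, or 2.01-fold, within the software's error of the 2-fold limit (A_55_P1957028, NM_001195003). Of the 2809 such probes of like intensity, 20.6% lay at least as far from 0, and for Kat8 the share was 10.7% of 3086 probes. Kat5 (TIP60), the acetyltransferase of a complex that works in DNA repair and in histone exchange, has 2 probes to NM_178637 that gave unlike ratios. The bright one, A_55_P2017714, read 1220 and 1535, a log2 ratio of 0.21 ± 0.20. The dim one, A_55_P1996329, read 33.6 and 77.8, a ratio of 1.09 ± 0.23 or 2.13-fold higher, also within the software's error of the limit. Of the probes of like intensity, 27.9% lay at least as far from 0 as this dim Kat5 probe. The Kat5 probes were 0.88 apart on the log2 scale, against 0.18 for the Hat1 probes and 0.03 for the Kat2a probes. Over the 3245 genes with several such probes on both arrays, the median distance was 0.56, the quartiles were 0.22 and 1.17, and 30.7% of genes had probes at least 1 apart. Kat5 is counted by its bright probe and so is not among the genes past the limit.

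**Figure D4:**
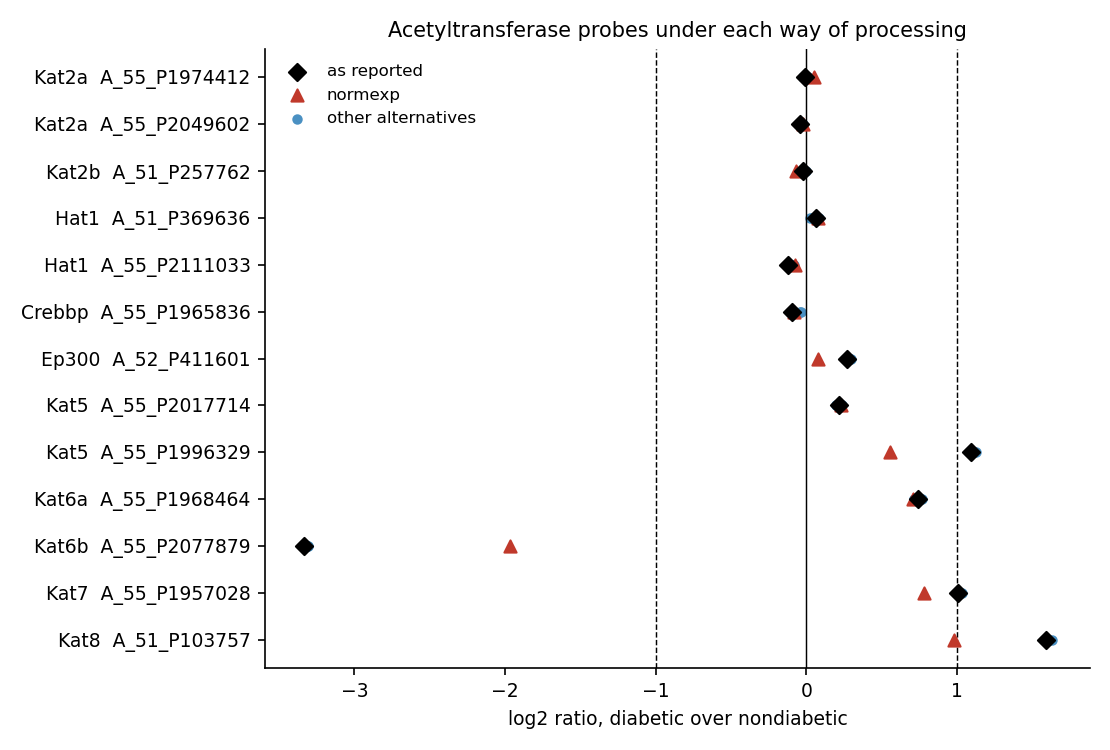
Log2 ratio, diabetic over nondiabetic, of each acetyltransferase probe as reported (black diamonds), with normexp background correction (red triangles) and under the other alternatives that give a value per probe (blue points), with 2-fold at the dashed lines. Normexp brings Kat6b from -3.33 to -1.97 and Kat8 from 1.59 to 0.98, and the other points stay close to the reported ones.

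The direction of the 4 probes past the limit was the same under each of the alternatives for background, scaling, filtering and outlier spots. Most of these could hardly change it. All 4 probes were well above background on both arrays, so the filters on dim probes returned the same ratios. Keeping outlier spots could change only Kat8, and median centring and the deposited table shift every ratio by a constant. Kat6b ran from -3.34 to -1.97, Kat8 from 0.98 to 1.63, Kat7 from 0.78 to 1.03 and the dim Kat5 probe from 0.56 to 1.13. The end nearest 0 came from normexp background correction each time, and without it Kat6b stayed between -3.34 and -3.31 and Kat8 between 1.58 and 1.63. Under normexp, Kat6b was the only one of the 4 probes past the limit. Kat6a, the MYST gene just short of it, ran from 0.71 to 0.77.

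Partner genes of each enzyme were read by the brightest probe in the same way. Together the partner lists hold 87 genes, 85 of them with a ratio, with a median log2 ratio of 0.02. Past the 2-fold limit were 6 genes (7.06%) with a higher and 5 (5.88%) with a lower level in the diabetic array. Both shares were below the 11.0% and 10.1% of all named genes. Those named genes include 1725 with only a bound, however, and the partner genes include 0. With bounds left out, the 1667 higher and 1538 lower named genes became 1271 and 1137, so the shares are not on quite the same footing.

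Of the 22 SAGA and ATAC subunits, the partners of Kat2a and Kat2b, 21 had a ratio, 0 were higher and 3 were lower past 2-fold, and the median was 0.24. Atxn7l3, an adaptor of the deubiquitinase module, was at 424 in the nondiabetic and 105 in the diabetic array, a log2 ratio of -2.13. Supt3, a core subunit with a histone-like fold, was at 273 and 82.8, a ratio of -1.84. Sgf29, which reads methylated histone H3, was at 436 and 151 by its brightest probe, a ratio of -1.65, but its other probe gave 1.79, and no direction can be given for it. Among the subunits closest to the enzyme, the adaptor Tada2a was at -0.56 and Tada3 at 0.24 with a further probe at 0.93, while Tada2b did not stand well above background in either condition. Trrap, the large scaffold shared with the TIP60 complex, was at 0.58.

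Of the 15 TIP60 complex subunits, the partners of Kat5, 1 was higher and 0 were lower, with a median of -0.10. Epc2, a scaffold that binds the enzyme, was at 71.2 in the nondiabetic and 275 in the diabetic array, a log2 ratio of 1.83, and its other probe gave 1.16, so both probes of Epc2 lay past the limit. Its paralog Epc1 lay on the other side of 0 at all of its probes, with -0.61, -0.90 and -0.77. The remodelling ATPase Ep400 was at -0.14, Ing3, which reads methylated histone H3, at 0.60, and Meaf6, which is shared with the MOZ, MORF and HBO1 complexes, at 0.28 and -0.26 by its probes.

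The MOZ, MORF and HBO1 subunits are the partners of Kat6a, Kat6b and Kat7. Of the 8, 7 had a ratio, 0 were higher and 1 was lower. Their median was 0.33 by the brightest probes, 0.10 with a floor on dim values and -0.0093 with the mean over each gene's probes, so it has no settled sign. That 1 was Ing5, a reader of methylated histone H3, at 180 in the nondiabetic and 94.1 in the diabetic array, a log2 ratio of -1.05, or -0.74 under normexp and so within the limit. Its relative Ing4 was at -0.95. The BRPF scaffolds, which bind the Kat6 enzymes, did not share a sign, with Brpf1 at 0.59, Brpf3 at 0.33 and Brd1 at -0.78. Jade1, the scaffold that directs Kat7 to histone H4, was at 0.52 by one probe and -0.54 by the other. For the 11 MSL and NSL subunits, the partners of Kat8, none was past 2-fold in either direction and the median was 0.29, with Kansl2 just short of the limit at 0.99 and past it under median centring. Among them Msl1, the scaffold of the MSL complex, was at -0.04, Msl2 at 0.32 and the NSL scaffold Kansl1 at -0.18. The Kat8 ratio of 1.59 thus stood beside partner ratios within the 2-fold limit.

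The 5 HAT1 partners and histone chaperones held 1 gene past the limit, with a median of 0.24 that turned to -0.047 with the mean over probes. Asf1a, a chaperone of histones H3 and H4, was at 62.6 and 161, a log2 ratio of 1.25 that normexp brought to 0.74, within the limit. By contrast, Rbbp7, the histone-binding partner of Hat1, was at 0.24 and -0.33 by its probes and Rbbp4 at 0.13 and -0.48. Of the 7 coactivator partners of CBP and p300, 1 was higher and 0 were lower, with a median of 0.28 that turned to -0.059 with the mean over probes. Carm1, a methyltransferase that acts with CBP and p300 at promoters, was at 255 and 634, a ratio of 1.20. Cited2, which binds CBP and p300, was at -0.27, and the coactivator Ncoa3 at 0.44 with a further probe at -0.96.

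Acetyltransferases use acetyl-CoA as their substrate. Of the 9 genes of acetyl-CoA supply, 2 were higher and 1 was lower, with a median of -0.22. Acss1, the mitochondrial enzyme that makes acetyl-CoA from acetate, was at 319 in the nondiabetic and 83.4 in the diabetic array, a log2 ratio of -2.05. Acss2 and Acly, which make acetyl-CoA in the cytosol and nucleus from acetate and from citrate, were at -0.82 and -0.67 by their brightest probes, and at -0.16 and 0.10 by the other probe of each. Slc25a1, which carries citrate out of mitochondria, was at 83.1 and 198, a ratio of 1.13, or 0.77 under normexp. Mpc1, a subunit of the mitochondrial pyruvate carrier, was at 87.9 and 191, just past the limit by its brightest probe, with a ratio of -0.73 by the other. Among 10 other acetyltransferases that are not in the member list, 1 was higher and 0 were lower, with a median of -0.06. This was Atat1, the tubulin acetyltransferase, at 97.0 and 217, a ratio of 1.04, but its further probes gave 0.09 and -0.91.

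The deacetylases that oppose these enzymes, the histone deacetylases and sirtuins, are 18 genes, of which 17 had a ratio, with 3 higher and 2 lower past 2-fold, where 11.0% and 10.1% of all named genes were, and a median of -0.26. Of the 2 lower, Hdac8 was at -1.10 by its brightest probe but at 2.74 by the other, and Hdac11 has only a bound. Of the 3 higher, Sirt6 was at 1.24 by its brightest probe and at -0.04 by the other. Sirt1 was at 1.89 and Hdac3 at 1.22, each by its 1 probe, well above background on both arrays. Among these genes the paper lists Hdac3, Hdac8, Sirt1 and Sirt6 as upregulated and Hdac11 as downregulated, whereas the brightest Hdac8 probe was lower here. Under normexp 1 deacetylase was higher and 0 were lower, with the mean over probes 2 and 1, and with probes well above background on both arrays alone 3 and 1. The acetyltransferases had 2 higher and 1 lower of 10 and a median of 0.14. The difference between these lists has no test with 1 array a condition.

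**Figure D5:**
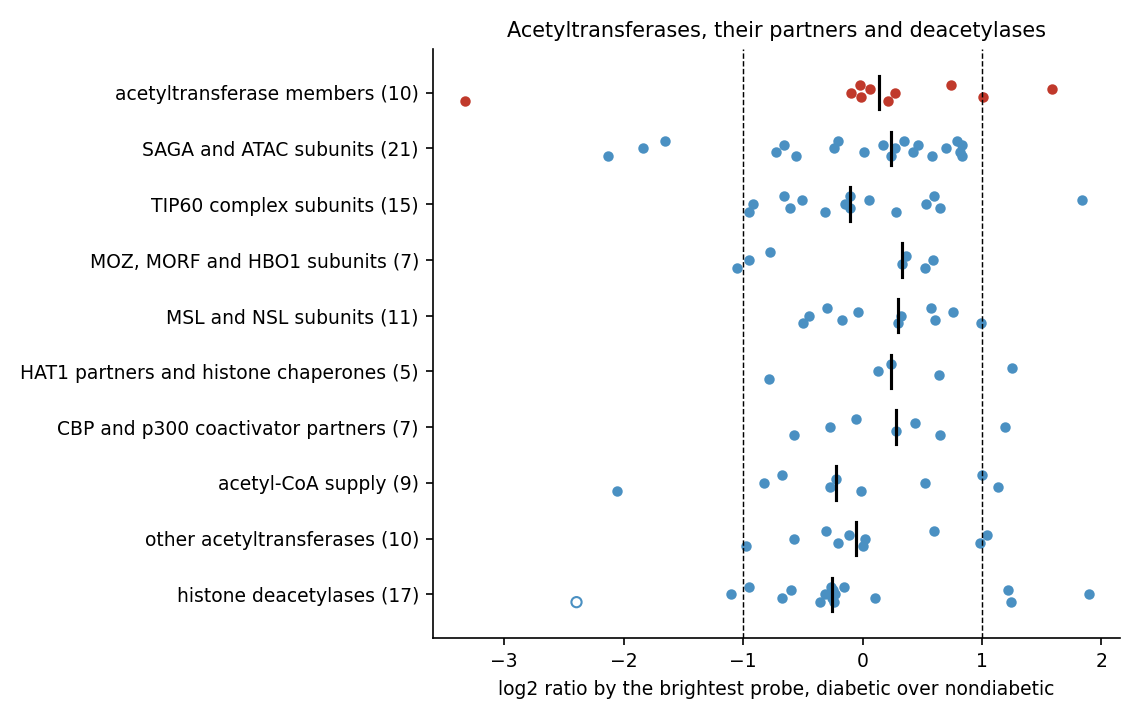
Log2 ratio by the brightest probe, diabetic over nondiabetic, of each gene in the acetyltransferase list (red) and in each partner and deacetylase list (blue), with the number of genes with a ratio in brackets, vertical bars at the list medians, an open circle for a bound where only 1 array was well above background, and 2-fold at the dashed lines. The list medians lie between -0.26 and 0.33, and Kat6b at -3.33 is the lowest point in the plot.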

How the data were processed

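Expression was read from 2 arrays of Cy3-labelled, amplified RNA. The authors deposited scanner output from Agilent Feature Extraction 11.5.1.1, in which the processed intensity is background-corrected within the array, not normalized between arrays; the grid names mm9. The deposited table of processed values was the same intensity times 1 constant per array. Intensities were scaled to the 75th percentile of an array's non-control spots, on the log2 scale. Outlier spots on either array were dropped on both, and log2 values were averaged over spots. A gene stands by the probe of highest mean log2 intensity, and a bound is used where 1 array is not well above background. Transcript identifiers matched a RefSeq table (GRCm38.p6) for 31845 non-control spots (53.7%). Probe and protein sequences were not used here. 1 erythroid marker is not reported here.

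No test was made with 1 array per condition. Members, partner lists and the genes named (all members, partners past 2-fold, and a fixed set of partners of each complex) were chosen with earlier results of these data known. Alternatives were normexp (offset 50, on the median spot intensity), quantile normalization, median centring, loess, 3 other filters on dim probes (none, both arrays, a floor), outlier spots kept, the deposited table, and the mean over a gene's probes. The steps were run on simulated data with changes well past 2-fold planted in bright probes. That run does not bear on dim probes or on ratios near the limit. Python 3.11.15, numpy 2.4.6, pandas 2.3.3, R 4.3.3 and limma 3.58.1 were used.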

Additional observations from a re-analysis of the deposited data

How the results depend on the processing

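The count of acetyltransferase genes at least 2-fold higher, 2 as reported, was 1 with loess, 1 with the authors' table of processed values and 0 with normexp background correction. In the first 2 of these Kat7 slipped just under the limit, and under normexp Kat8 and Kat7 did. The count of acetyltransferase probes at least 2-fold higher, 3 as reported, was 0 with normexp. The 1 gene and 1 probe lower, both Kat6b, were lower in each alternative run. The filters, outlier spots kept and the mean over probes could not change the Kat6b value. Over the partner lists together, the 6 genes higher became 2 with normexp, and of the 11 partner genes past 2-fold 6 were still past it with normexp (Sgf29, Supt3, Atxn7l3, Epc2, Carm1 and Acss1, without Ing5, Asf1a, Slc25a1, Mpc1 and Atat1), 8 with the mean over a gene's probes and 10 with the table. The median of the other acetyltransferases, -0.06, ran to 0.049 among the alternatives. Sgf29 turned from -1.65 to 0.068 with the mean over its probes. Normexp moved 4 of the 16 list counts by over 1.5 times, the mean over probes 2, median centring 2, and 1 each moved with no filter and with the deposited table. Under normexp the 1 lower MOZ, MORF and HBO1 subunit, the 1 higher HAT1 partner, the 2 higher genes of acetyl-CoA supply and the 1 higher other acetyltransferase all became 0. Median centring brought 1 MSL and NSL subunit and 2 other acetyltransferases past the limit upward, where 0 and 1 were reported, and the table left 1 gene of acetyl-CoA supply higher in place of 2. Over all named genes, 1667 higher and 1538 lower became 585 and 496 with normexp. Median centring and the deposited table move all ratios by 1 constant each, and the mean over probes brings in probes that disagree. Normexp was run with an offset of 50. By arithmetic, such a constant on both arrays draws log2 ratios toward 0, most of all at low intensity. How the normexp shifts divide between this offset and the background step was not tested. The cause of the remaining shifts was not tested either.

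No paired analysis was possible because there is only 1 array per condition and nothing was tested, and leaving out a replicate was not possible for the same reason. The number of arrays limits the precision, and 12 of the 13 acetyltransferase probes were printed at 1 spot. Ep300, at 16.8 and 22.0, and the diabetic Kat6b spot, at 24.9, lay closest to the lowest intensities marked as well above background.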
